A study of Mus musculus with 5 samples.

Results

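The contacts of the Hoxa cluster were examined in the supporting cells of the embryonic mouse gonad. An interaction was included if both ends lay on chromosome 6 and either end carried the name of 1 of 9 listed Hoxa genes (Hoxa2, Hoxa3, Hoxa4, Hoxa5, Hoxa7, Hoxa9, Hoxa10, Hoxa11 and Hoxa13). In the table with extended baits this gave 61 of 51777 interactions and 8 of the 9 genes, and in the table with original baits 16 of 29711 interactions and 5 genes. Hoxa13 was named at neither end of any interaction, so its contacts were not analysed here and it enters only with its promoter sequence. Hoxa6 was not on the list and is not counted as a member.

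Hox genes encode homeodomain transcription factors that give cells their position along the body axis. The Hoxa genes lie side by side on 1 strand, and their order along the chromosome matches the order of the body regions in which they act, from the head end to Hoxa13 at the tail and limb ends. In the reproductive tract, Hoxa9, Hoxa10, Hoxa11 and Hoxa13 are known for patterning the ducts, from the oviduct to the vagina in females. Genes of an active and of a silent stretch of a Hox cluster are known to form separate contact domains, and silent stretches are bound by polycomb proteins.

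The study compared 3 libraries of E13.5 Sertoli cells, sorted by the Sox9IRES-GFP reporter, with 2 libraries of E13.5 pre-granulosa cells, sorted by the Enh8-mCherry reporter. Sertoli cells nurse the germ cells in the testis, and pre-granulosa cells are their ovarian counterpart. Each library came from about 100000 sorted gonad cells, and whether the libraries came from separate litters is not given in the sources used here. Capture Hi-C cuts crosslinked chromatin with DpnII, joins fragments that are near each other in the nucleus and pulls out the products carrying a chosen promoter fragment, the bait. Each cell type is identified only by its reporter gate, and its marker genes could not be checked, because contacts do not measure expression.

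The deposited values were CHiCAGO scores, which are higher the more the read pairs of a bait and another end exceed a distance-dependent background. Scores from 5 upwards count as calls here, and each listed interaction reached 5 in Sertoli cells, in pre-granulosa cells or in both. Each table holds 1 column per cell type for all its libraries. No value therefore has a replicate error, no p-value can be given, and every difference below is between 2 pools of libraries. The read depth is unknown. In the original table a bait is a single DpnII fragment, and in the extended table it is a bin of about 5 kb. Shares carry 95% Wilson intervals, which cover counting error only and are too narrow, since contacts that share a bin are not independent. Coordinates are mm10.

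The bins that carry the listed names reach from Hoxa2 to Hoxa11 (chr6:52162780-52251036, 88.3 kb), and the genes are all on the minus strand. The Skap2 gene, for a cytoplasmic adaptor protein, flanks it at lower coordinates, beyond Hoxa2, and Evx1, for another homeodomain factor, at higher coordinates, on the Hoxa13 side. The promoters on which the contacts turn are printed from RefSeq (GRCm38.p6) as the stretch around the start of each gene, most of it upstream. Hoxa5 and Hoxa9 are shown because their bins held the most pre-granulosa calls, Hoxa11 because it lay at the pre-granulosa end of the range, and Skap2 because its promoter bin was the main contact outside the cluster. Capitals mark GATC, the site cut by DpnII.
Hoxa5 (chr6:52204538-52204837, minus strand): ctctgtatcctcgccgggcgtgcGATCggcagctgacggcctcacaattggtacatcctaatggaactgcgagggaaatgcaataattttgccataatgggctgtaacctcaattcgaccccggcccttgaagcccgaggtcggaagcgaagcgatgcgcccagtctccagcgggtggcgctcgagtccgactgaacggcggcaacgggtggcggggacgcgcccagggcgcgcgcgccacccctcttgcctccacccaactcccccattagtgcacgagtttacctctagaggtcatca
Hoxa9 (chr6:52227321-52227620, minus strand): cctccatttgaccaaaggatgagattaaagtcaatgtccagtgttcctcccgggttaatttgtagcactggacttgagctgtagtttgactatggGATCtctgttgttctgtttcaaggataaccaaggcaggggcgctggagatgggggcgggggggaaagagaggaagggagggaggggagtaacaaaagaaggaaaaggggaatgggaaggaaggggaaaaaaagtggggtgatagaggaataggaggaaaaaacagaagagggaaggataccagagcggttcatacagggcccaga
Hoxa11 (chr6:52245761-52246060, minus strand): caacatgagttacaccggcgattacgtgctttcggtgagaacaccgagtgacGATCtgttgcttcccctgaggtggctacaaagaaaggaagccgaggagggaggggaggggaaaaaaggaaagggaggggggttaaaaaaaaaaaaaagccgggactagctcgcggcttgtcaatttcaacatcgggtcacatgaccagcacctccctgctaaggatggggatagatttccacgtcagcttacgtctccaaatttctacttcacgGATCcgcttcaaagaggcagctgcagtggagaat
Skap2 (chr6:52012500-52012799, minus strand): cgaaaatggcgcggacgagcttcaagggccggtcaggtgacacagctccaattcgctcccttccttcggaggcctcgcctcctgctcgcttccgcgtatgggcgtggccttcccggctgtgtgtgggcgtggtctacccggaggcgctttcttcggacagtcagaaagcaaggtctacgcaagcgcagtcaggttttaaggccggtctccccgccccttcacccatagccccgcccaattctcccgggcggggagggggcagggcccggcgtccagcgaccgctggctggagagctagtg

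These sites set the borders of what was measured. Of the 8 GATC sites in member promoters, 5 lay exactly at a fragment or bin border of the interaction tables. The site of the Hoxa5 promoter, at 52204811, directly follows the last base of the Hoxa5-201 original bait (52204272 to 52204810). A site in the Hoxa11 promoter, at 52245791, is the border between the extended bins of Hoxa10-201 and Hoxa11-201, so that promoter is split between both bins. The RefSeq promoters used here were 9, for 8 members, 2 of them for Hoxa10, and the promoter of Hoxa4 was not used here. They held a median of 15 CpG dinucleotides, against 7 in all 32851 promoters of this length, and 8 of the 9 were above that median, from 4 at Hoxa9 to 45 at Hoxa13. GATC was present in 7 of the 9, against 48.0% of all promoters. A site of the kind bound by Hox and Pbx proteins together (TGATTNAT, either strand) was in 1 of the 9, at Hoxa2, against 3.22% of all promoters.

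With the extended baits, Hoxa contacts were called more often in pre-granulosa cells than in Sertoli cells. Of the 61 listed, 51 were called in pre-granulosa cells (83.6%, interval 72.4 to 90.8) and 35 in Sertoli cells (57.4%, 44.9 to 69.0). Over all 51524 cis interactions of that table the order was opposite, with 56.3% called in pre-granulosa cells but 78.0% in Sertoli cells. Both cell types called 25 of the Hoxa contacts (41.0%, against 34.3% of all), 26 were called only in pre-granulosa cells (42.6%, against 22.0%) and 10 only in Sertoli cells (16.4%, against 43.7%). The median of asinh(Sertoli score) minus asinh(pre-granulosa score) was -0.35 for the Hoxa contacts and 0.34 for all cis interactions. At a threshold of 10 there were 11 calls in each cell type.

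The original baits gave a smaller difference between the cell types, but the Hoxa contacts again stood apart from all cis interactions. The median of asinh(Sertoli score) minus asinh(pre-granulosa score) was -0.13 for the Hoxa contacts and 0.55 for all cis interactions. Of 16 Hoxa contacts, 11 were called in pre-granulosa cells (68.8%, 44.4 to 85.8) and 9 in Sertoli cells (56.2%, 33.2 to 76.9), against 42.0% and 79.5% of all 29421 cis interactions. Both cell types called 4 (25.0%, against 21.5%), 7 were called only in pre-granulosa cells (43.8%, against 20.5%) and 5 only in Sertoli cells (31.2%, against 58.0%). At a threshold of 7, 2 contacts were called in each cell type. Inside the cluster, 6 of 8 original contacts were called in pre-granulosa cells against 4 in Sertoli cells, and at a threshold of 7 the counts were 0 and 2.

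**Figure D1:**
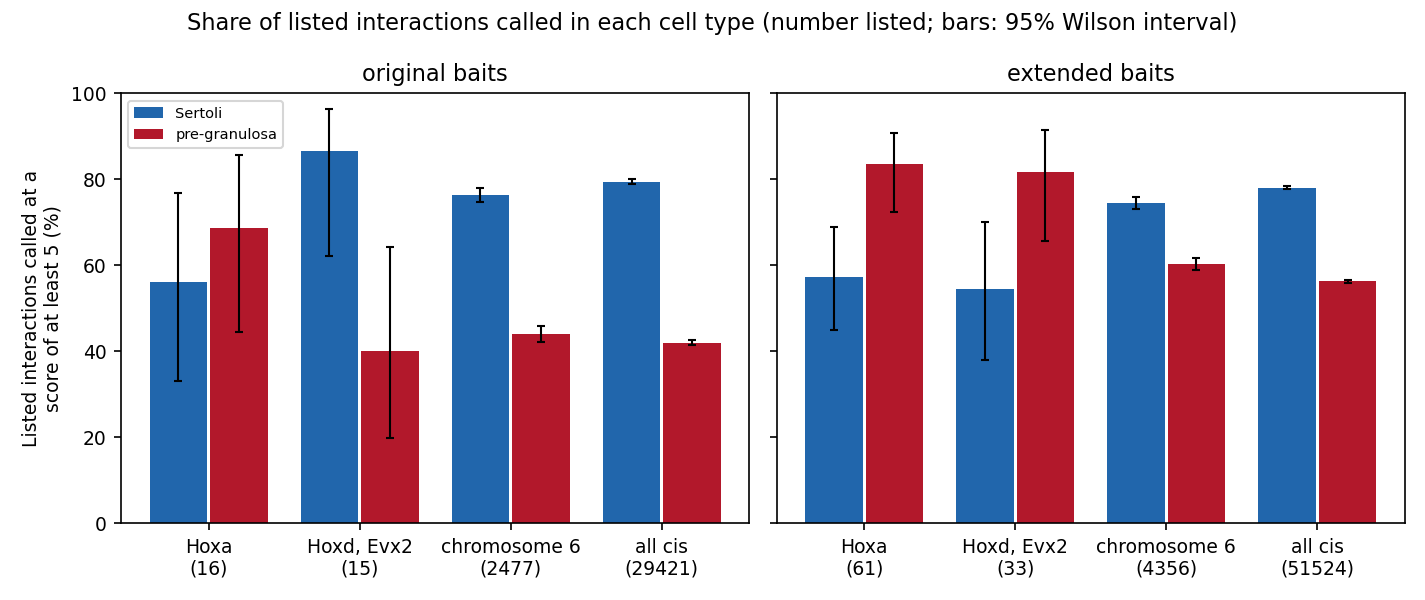
Bars give the percentage of listed interactions called at a CHiCAGO score of at least 5 in Sertoli (blue) and pre-granulosa cells (red), with 95% Wilson intervals, for the Hoxa cluster, the Hoxd cluster with Evx2, chromosome 6 and all cis interactions (number listed in parentheses). With the extended baits both Hox clusters have the taller pre-granulosa bar, 83.6% for Hoxa, while all cis interactions have the taller Sertoli bar, 78.0%.

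Inside the cluster, the strongest contacts had the Hoxa9 bin as their other end. Ends were counted as inside where they overlapped the RefSeq extent of the whole cluster, which reaches beyond the bins of the listed genes on both sides. The extended table listed 40 contacts with both ends inside the cluster, at 10.7 to 71.7 kb, of which 34 were called in pre-granulosa cells against 25 in Sertoli cells. Of all bait-to-bait contacts over the same distances, 67.9% were called in pre-granulosa cells but 79.4% in Sertoli cells. At a threshold of 10, the contacts inside the cluster had 8 pre-granulosa and 9 Sertoli calls. Of the 40, 3 had an other end with no bait name, and all 3 were called only in pre-granulosa cells, from Hoxa2 or Hoxa5, at scores up to 7.42. Of these 3, 2 ended below the Hoxa2 bin, at the edge of the cluster. The 10 bins that name a member form 41 pairs at least 10 kb apart, of which 22 were listed. From at least 1 of the ends, 18 of these pairs were called in pre-granulosa cells, 14 in Sertoli cells and 10 in both.

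The contacts were also counted by the genes they join. All 8 contacts within Hoxa9 to Hoxa11 were called in pre-granulosa cells against 7 in Sertoli cells, with median scores of 9.63 and 7.72. The 13 contacts that joined Hoxa2 to Hoxa7 with Hoxa9 to Hoxa11 were all called in pre-granulosa cells too, 7 of them also in Sertoli cells, and 11 had the higher score in pre-granulosa cells. Within Hoxa2 to Hoxa7 the balance differed, with 9 pre-granulosa calls and 10 Sertoli calls among 14 contacts, of which 5 were called only in Sertoli cells. All 5 had the Hoxa3-202 or the Hoxa4-201 bin at an end, and the other 9 contacts were all called in pre-granulosa cells, 5 of them also in Sertoli cells. The division into these classes was made after the scores had been seen.

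**Figure D2:**
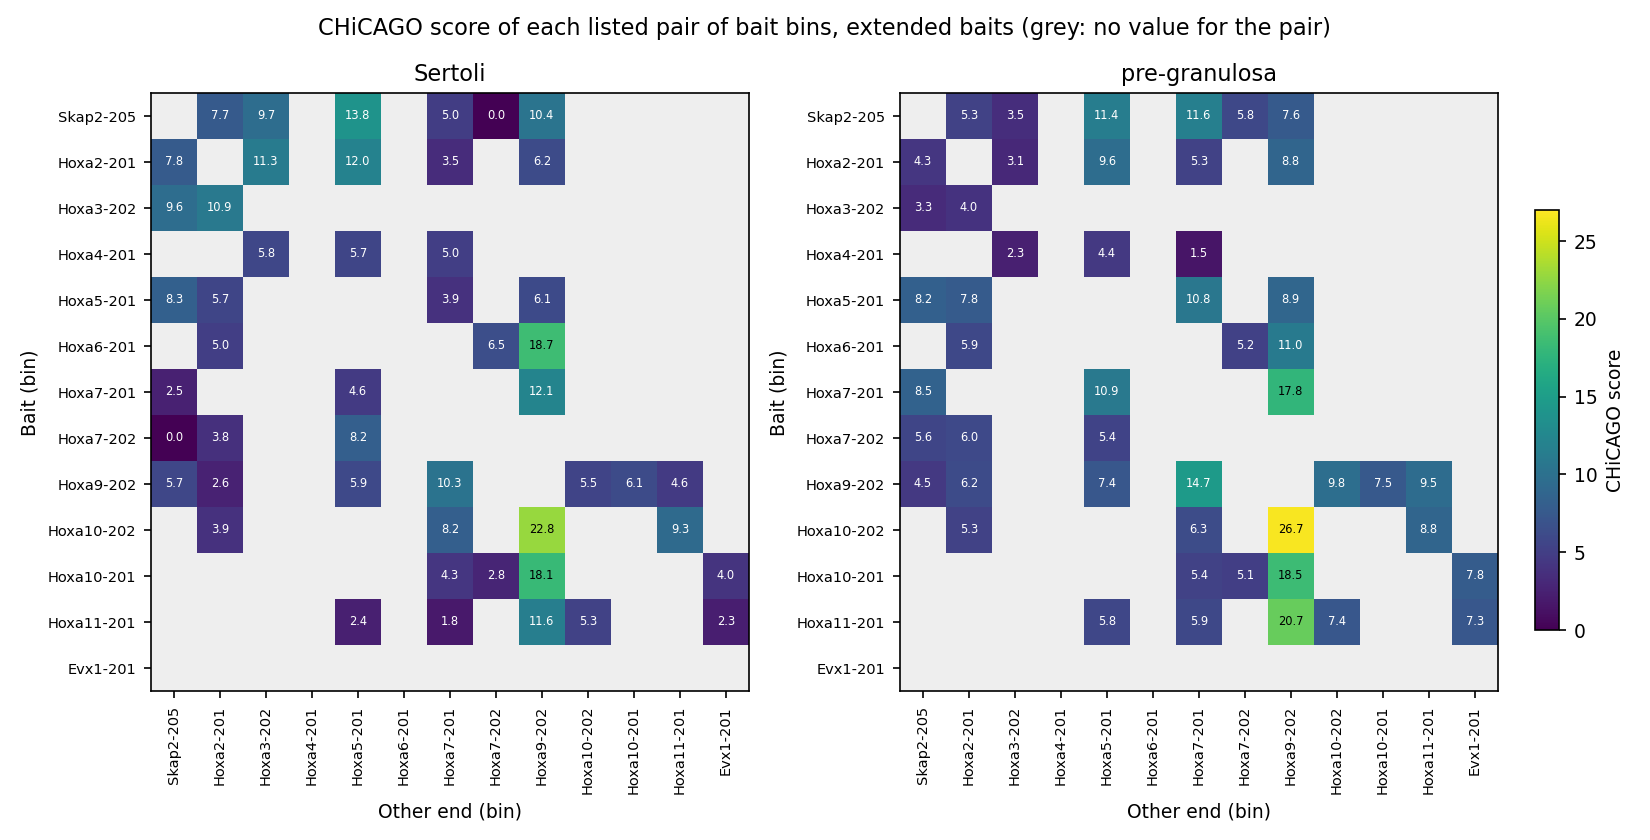
Each square gives the CHiCAGO score of a bait bin (rows) with an other-end bin (columns) in Sertoli (left) and pre-granulosa cells (right) for extended-bait contacts between the bins shown that have a listed Hoxa gene at either end, with bins in chromosomal order from Skap2 to Evx1 and grey where no such contact was listed. The Hoxa9 column holds the highest scores in both cell types, up to 22.8 and 26.7, and the Hoxa3-202 squares are higher in Sertoli cells.

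Hoxa2 is the gene that patterns the second branchial arch and the hindbrain. Its extended bin (52162780 to 52168155) had 16 listed contacts, 13 called in pre-granulosa cells against 8 in Sertoli cells, and at a threshold of 7 there were 5 calls in each. Its contact with the Hoxa3-202 bin scored 11.3 in Sertoli cells against 3.07 in pre-granulosa cells, and from the Hoxa3-202 end 10.9 and 4.00. Its contact with Hoxa5 scored 11.97 and 9.64, and from the Hoxa5 end 5.68 and 7.77, so the higher cell type depended on the end that served as bait. With the original bait Hoxa2-201, a bin in the Hoxa3 gene from 52170558 to 52177770 was called in both cell types, at 9.21 in Sertoli cells against 6.23 in pre-granulosa cells. The bin from 52191948 to 52196960 reached the threshold only in pre-granulosa cells, at 5.07 against 1.17. The adjacent bin, from 52196961 to 52202396, reached it only in Sertoli cells, at 5.20 against 3.14. The bin from 52158429 to 52163588 did so too, at 6.58 against 2.82. Of the 6 contacts of this original bait, 3 were called only in pre-granulosa cells, 2 only in Sertoli cells and 1 in both.

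The bins named for Hoxa3, needed for the thymus and parathyroid, and Hoxa4 stood at the Sertoli end of the range. The Hoxa3-202 bin (52178758 to 52184120) had 5 listed contacts, all called in Sertoli cells and none in pre-granulosa cells. Their Sertoli scores ran from 5.80 to 11.3 and their pre-granulosa scores from 2.35 to 4.00, so the ranges did not overlap. Every listed contact is a call in at least 1 cell type, so a bin with no pre-granulosa call has Sertoli scores of 5 or more by that rule. Of all extended cis interactions, 43.7% were called only in Sertoli cells. Of the 5 contacts of the Hoxa3-202 bin, 4 reached 7 in Sertoli cells. The Hoxa4-201 bin (52190326 to 52195338) had 3 contacts, with Hoxa3-202, Hoxa5 and the bin of Hoxa7-201, all called only in Sertoli cells. The last of them scored 5.05 in Sertoli cells, just past the threshold, and 1.49 in pre-granulosa cells, and none of the 3 reached 7. Together these bins held 7 of the 10 contacts called only in Sertoli cells. The pairs of Hoxa3-202 with Skap2 and with Hoxa2 were each listed from both ends, so each counts more than once. The Hoxa3-202 bin lies inside the RefSeq gene, whose upstream start, at 52213067, is in the bin of Gm28308-201 and Hoxa7-201. That bin was called more often in pre-granulosa cells, 11 times against 6.

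Hoxa5, which acts in the lung and the cervical and thoracic skeleton, had 16 contacts of its extended bin (52201072 to 52206463), 15 called in pre-granulosa cells against 9 in Sertoli cells. At a threshold of 7 there were 11 and 4. Its contact with the bin of Gm28308-201 and Hoxa7-201 scored 10.8 in pre-granulosa cells against 3.86 in Sertoli cells, and 10.9 and 4.58 from the other end. With the original bait Hoxa5-201, the bin from 52164940 to 52170557, just upstream of Hoxa2, scored 6.10 in pre-granulosa cells against 2.30 in Sertoli cells.

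Hoxa7 was measured in 2 bins, which together had 6 pre-granulosa and 4 Sertoli calls at a threshold of 7. The bin of Gm28308-201 and Hoxa7-201 (52212816 to 52218544) had 13 contacts, 11 called in pre-granulosa cells against 6 in Sertoli cells. The bin of Hoxa7-202 and Hoxa7-204 (52218545 to 52223814), which holds the RefSeq start of the gene, had 6, of which 6 and 2 were called. From this bin Hoxa5 scored 8.17 in Sertoli cells against 5.44 in pre-granulosa cells.

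Hoxa9, known for its role in blood progenitors and leukaemia, held the strongest contacts. Its bin (52223815 to 52228854) had 16, of which 15 were called in pre-granulosa cells against 13 in Sertoli cells, and 12 were shared, and at a threshold of 7 there were 13 and 7. From the bait Hoxa10-202 it scored 26.7 in pre-granulosa cells against 22.8 in Sertoli cells, the highest of all Hoxa contacts in both. From Hoxa10-201 it scored 18.5 and 18.1, a small difference beside the others. Read from the Hoxa9 end the same pairs scored lower, with Hoxa10-202 at 9.76 and 5.54 and Hoxa10-201 at 7.55 and 6.13. From Hoxa11-201 it scored 20.7 in pre-granulosa cells against 11.6 in Sertoli cells, and from Hoxa6-201 the order was opposite, at 10.98 and 18.7. The contact with the bin of Hoxa7-201 scored 17.8 and 12.1, and 14.7 and 10.3 from the Hoxa9 end.

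Hoxa10, whose loss impairs the uterus and the descent of the testis, had 11 contacts over its 2 bins, all called in pre-granulosa cells and 7 also in Sertoli cells, with 7 and 4 at a threshold of 7. Hoxa11, which also acts in the uterus and in the forearm, had 7 contacts, all called in pre-granulosa cells and 3 also in Sertoli cells. At a threshold of 7 there were 5 and 2. Among all bait-to-bait contacts over the distances inside the cluster, the pre-granulosa share was 67.9% and the Sertoli share 79.4%. For the Hoxa contacts together these shares were 83.6% and 57.4%. Pairs listed from both ends count more than once, and contacts of Hoxa10 with Hoxa11 count for both genes. With so few contacts, no difference of either gene from the rest of the cluster was shown. The contacts of the Hoxa11-201 bin (52245791 to 52251036) scored 5.76 to 20.7 in pre-granulosa cells and 1.82 to 11.6 in Sertoli cells, ranges that overlap, and 6 of the 7 were higher in pre-granulosa cells. Its contacts with Hoxa5 and with the bin of Hoxa7-201 scored 5.76 and 5.85 in pre-granulosa cells and 2.41 and 1.82 in Sertoli cells. Its median difference of asinh scores was -0.72, against 0.9995 for the Hoxa3-202 bin at the other extreme.

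**Figure D3:**
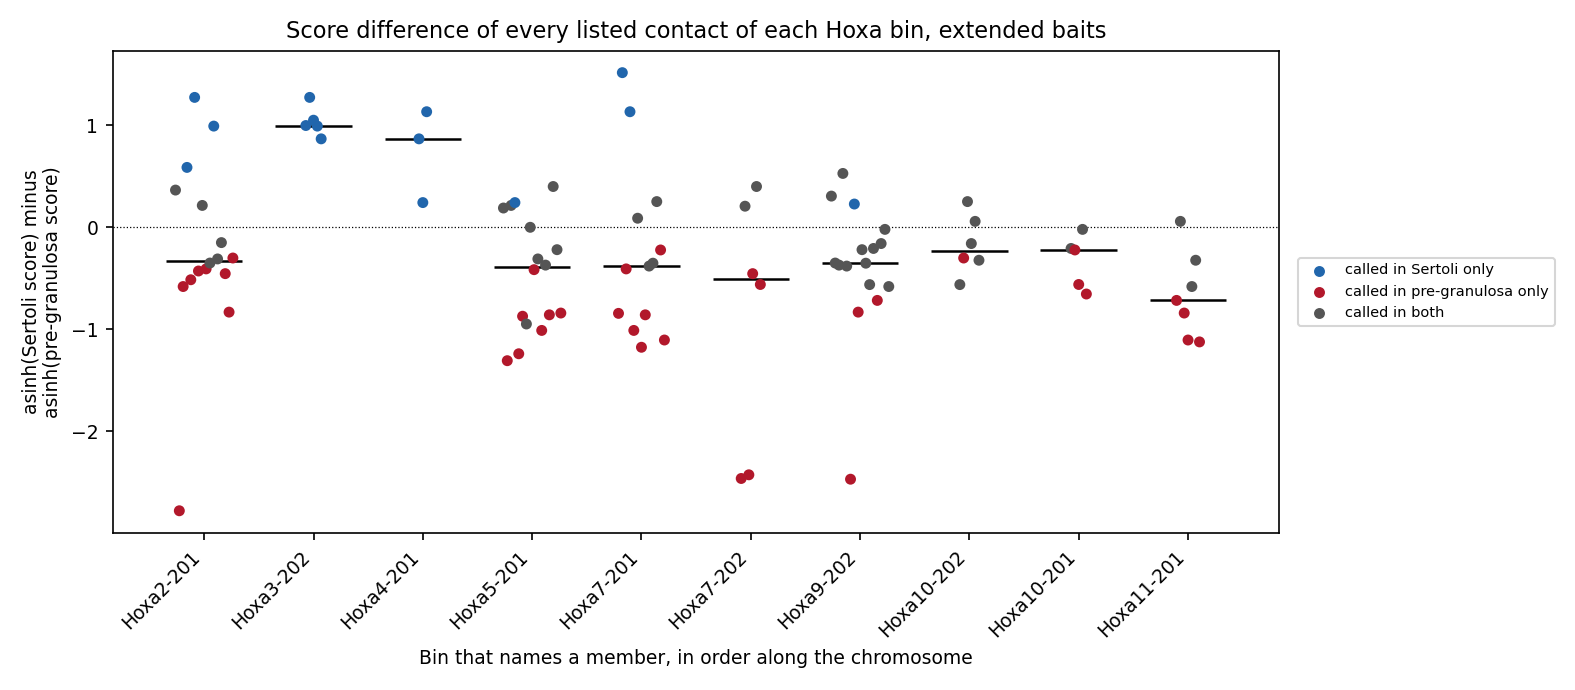
Each point is a listed extended-bait contact of a Hoxa bin, placed by asinh(Sertoli score) minus asinh(pre-granulosa score) and coloured by the cell types that called it, with a line at the median of each bin and bins in chromosomal order. All points of Hoxa3-202 and Hoxa4-201 lie above 0, the medians of the other bins lie below 0, and the contacts near -2.5 and -2.8 are those listed at a Sertoli score of 0.

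The stretch between Hoxa9 and Hoxa10 was contacted by both genes with the original baits. The bin from 52227522 to 52232631 holds the gene of miR-196b, a microRNA of the Hox clusters, and begins at the GATC of the Hoxa9 promoter. Hoxa9-202 contacted it at 9.85 in Sertoli cells against 5.94 in pre-granulosa cells, 4.1 kb away. Hoxa10-202 contacted it at 6.76 in pre-granulosa cells against 2.24 in Sertoli cells, 4.8 kb away. The same bin was thus higher in Sertoli cells from one neighbour and in pre-granulosa cells from the other. The mature 5p microRNA encoded there (chr6:52230129-52230150, minus strand) is shown with its seed, bases 2 to 8, in capitals.
mmu-miR-196b-5p: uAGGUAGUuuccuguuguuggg

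On the Skap2 side, contacts beyond the cluster converged on Skap2. The extended table listed 19 contacts on this side, 15 called in pre-granulosa cells against 10 in Sertoli cells, and at a threshold of 7 there were 8 and 7. Of these, 12 joined the Skap2 promoter bin (52007984 to 52015356) with 6 of the 10 Hoxa bins, each pair listed from both ends, over 153.8 to 214.7 kb. They were called 8 times in each cell type, with Sertoli calls at 75.3% and pre-granulosa calls at 48.4% among all bait-to-bait contacts over these distances. With the original baits, the lower part of the same bin (52007984 to 52012159) was contacted by Hoxa3-202 at 6.28 in Sertoli cells against 3.82 in pre-granulosa cells, and by Hoxa5-201 at 6.34 against 5.13. The bins of Hoxa4, Hoxa10 and Hoxa11 had no listed contact with it.

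The Hoxa genes differed in their contact with the Skap2 promoter. From the Skap2 bait, Hoxa3-202 scored 9.65 in Sertoli cells against 3.49 in pre-granulosa cells, and Hoxa2 scored 7.67 and 5.29. Hoxa5 was called in both cell types, at 13.8 and 11.4, and Hoxa9 as well, at 10.4 and 7.63. The bin of Hoxa7-201 was higher in pre-granulosa cells, at 11.6, with a Sertoli score of 4.95 just under the threshold, and that of Hoxa7-202 scored 5.83 in pre-granulosa cells and was listed at 0 in Sertoli cells. From the Hoxa ends each of the 6 pairs was again higher in the same cell type, although Hoxa5 then scored 8.25 in Sertoli cells against 8.24 in pre-granulosa cells, which are nearly equal. Hoxa2 and Hoxa9 were then called only in Sertoli cells, at 7.78 against 4.28 and at 5.73 against 4.53.

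Bins inside the Skap2 gene, next to its promoter, were contacted too. The bin from 52002909 to 52007983 scored 16.0 in pre-granulosa cells against 6.16 in Sertoli cells from the extended Hoxa5 bait, and 15.0 and 6.85 from the original one. It was also called from the bin of Hoxa7-201, at 6.28 in pre-granulosa cells against 6.87 in Sertoli cells, and from Hoxa2, at 5.27 and 2.89. Farther into the gene, the bin from 51997505 to 52002908 was contacted from Hoxa5 in pre-granulosa cells alone, at 7.37 with the extended bait and 6.90 with the original one, against 3.02 and 4.03 in Sertoli cells. At the far end of Skap2, near the 3′ end of the gene, the bin from 51860829 to 51866582 was called from Hoxa5 in pre-granulosa cells, at 6.41 against 1.73, while with the original bait its neighbour from 51866583 to 51871617 was called in Sertoli cells, at 6.07 against 3.84. A further bin of Skap2, from 51877172 to 51882338, scored 5.86 in Sertoli cells, with 0 listed for pre-granulosa cells.

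**Figure D4:**
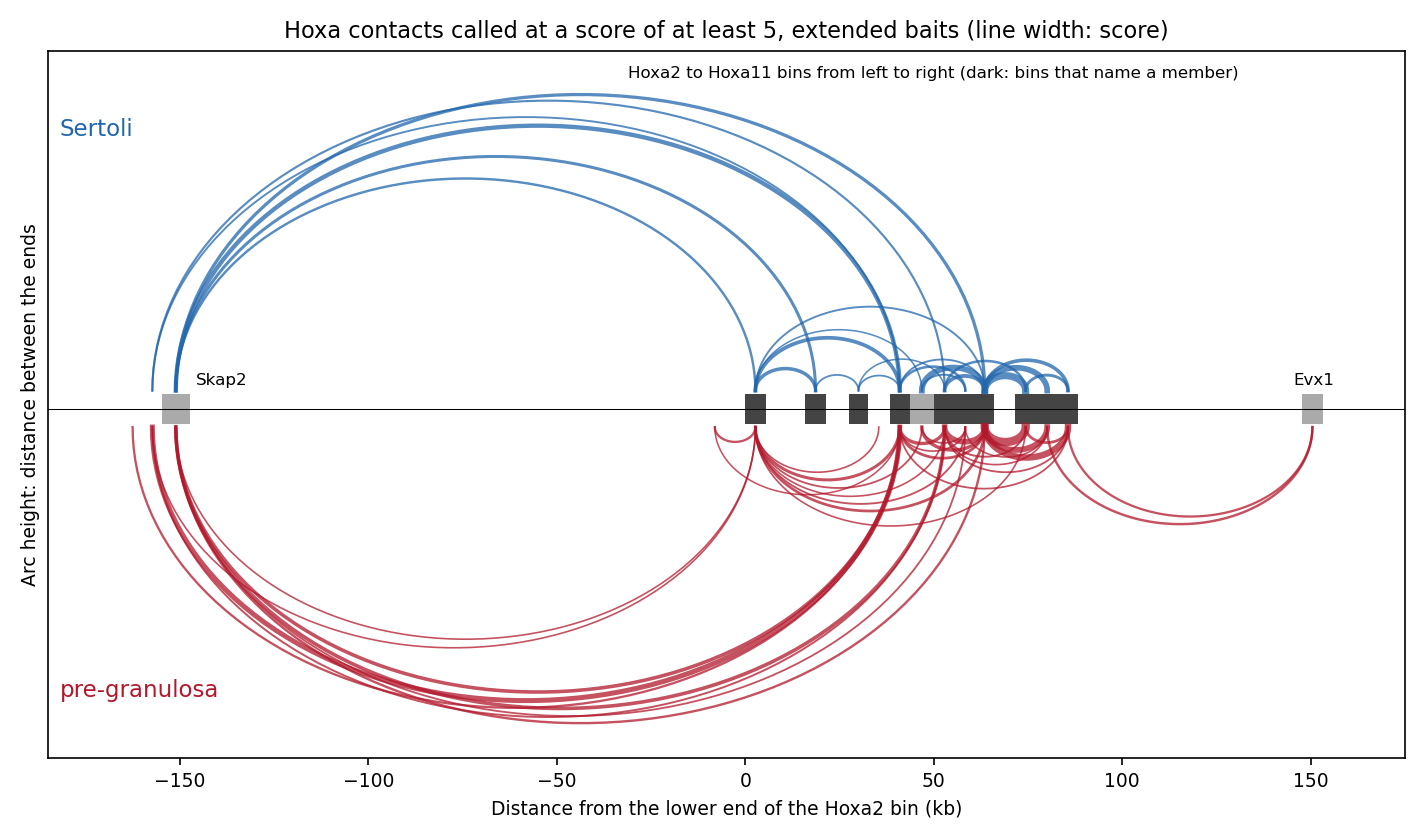
Arcs join the midpoints of the ends of each Hoxa contact between the plotted ends called at a score of at least 5 with the extended baits, in Sertoli cells (above, blue) and pre-granulosa cells (below, red), along the distance in kb from the lower end of the Hoxa2 bin, with line width following the higher score of the pair's 2 listings and 3 far pairs left out. Long arcs end at Skap2 or just beside it in both cell types, and the arcs to Evx1 are present only in pre-granulosa cells.

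The contact farthest away lay in a region with no RefSeq gene, from 51175559 to 51182179. The Hoxa2 bait contacted it over 986.6 kb at a pre-granulosa score of 8.03 with the extended bait and 8.59 with the original one, and the Hoxa9 bait over 1047.5 kb at 5.87. All of these were listed at 0 in Sertoli cells, and what a score of 0 stands for is not given in the sources used here. With the original baits, 5 contacts beyond 200 kb were listed, 3 called in pre-granulosa cells against 2 in Sertoli cells, with 1 listed at 0 in each cell type. Beyond 200 kb, 11 extended contacts were listed, 10 called in pre-granulosa cells against 3 in Sertoli cells, and 4 of the 11 were at 0 in Sertoli cells. Among the 11, the pairs of Skap2 with both Hoxa7 bins and with Hoxa9 were each listed from both ends. The 4 at 0 were Skap2 with Hoxa7-202, from both ends, and the extended contacts of the region without a gene. Of all 3360 extended cis interactions beyond 200 kb, 46.7% were called in pre-granulosa cells but 73.4% in Sertoli cells, and 7.35% were at 0 in Sertoli cells.

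On the Hoxa13 side, the only contacts of listed genes were with Evx1. The Evx1-201 bin (52310546 to 52316008) was called in pre-granulosa cells from Hoxa10-201, at 7.84 against 4.03, and from Hoxa11-201, at 7.32 against 2.29. Neither was listed from the Evx1 end, and neither reached 10. Of the 7 genes and transcripts listed on this side, 5 had an interaction in the extended table and 1, Evx1, had one with a Hoxa member. Hibadh, Tax1bp1, Jazf1 and Creb5 had none. On the Skap2 side, Snx10, Hnrnpa2b1 and Nfe2l3 had interactions in the extended table but none with a member.

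Baits whose contacted bins were most like those of the members were their neighbours. Of the 8 bins contacted by Skap2 with the extended baits, 7 (87.5%) were also contacted by a member, which is 41.2% of the 17 bins contacted by members. Most of the bins contacted by Skap2 were bins of the members themselves, so this overlap largely restates that Skap2 contacted the cluster. Hoxa6 had 4 of 4 bins in common. Gm28308 also had 4 of 4, but it shares its bin with Hoxa7-201.

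A pair could be read from its other end or from the other table, although these come from the same libraries. Of the pairs of bait bins, 19 were listed from 1 end only and 16 from both ends. Of those 16, 14 were higher in the same cell type from both, and the exceptions were Hoxa2 with Hoxa5 and Hoxa10-202 with Hoxa11. The score itself depended on the bait. Its median change between the ends was 2.98 in Sertoli cells against 2.23 in pre-granulosa cells, and the largest was 17.3 and 16.96, for Hoxa9 with Hoxa10-202. Of the 16 contacts of original baits, 5 had the same other-end bin in the extended table, and all 5 were higher in pre-granulosa cells in both tables. None of the 8 original contacts that were higher in Sertoli cells had such a match, but this was partly fixed in advance. Those at 3.8, 4.1 and 9.3 kb lay below 10 kb, where the extended baits list no contact. The same holds for the Hoxa10-202 contact at 4.8 kb, which was higher in pre-granulosa cells. The lower part of the Skap2 promoter bin is not a separate bin in the extended table. With the whole bin, the extended Hoxa3-202 bait scored 9.60 in Sertoli cells against 3.29 in pre-granulosa cells, and Hoxa5 8.25 against 8.24.

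Many calls in 1 cell type lay near the threshold in the other. Of the 26 extended contacts called only in pre-granulosa cells, 13 scored 3 or more in Sertoli cells and 6 scored 4 or more. Of the 10 called only in Sertoli cells, 7 and 3 did so in pre-granulosa cells.

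The Hoxd cluster, on chromosome 2, had the same order of the cell types as the Hoxa cluster with the extended baits, while with the original baits its shares were close to those of all cis interactions. With Evx2 it had 33 extended contacts, 27 called in pre-granulosa cells (81.8%, 65.6 to 91.4) and 18 in Sertoli cells (54.5%, 38.0 to 70.2), against 56.3% and 78.0% of all extended cis interactions. With the original baits it had 15, of which 6 (40.0%, 19.8 to 64.3) and 13 (86.7%, 62.1 to 96.3) were called, against 42.0% and 79.5% of all original ones. The intervals of the clusters overlapped in both tables, and no difference between them was shown.

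The genes for partners and regulators of Hox proteins were counted at their own baits. Among the Hox cofactors, whose products bind DNA together with Hox proteins, 4 of 9 had extended baits with contacts (Meis2, Pbx3, Pbx4 and Pknox2), with 8 pre-granulosa and 7 Sertoli calls among 13. Of the polycomb genes, 11 of 20 had such baits, with 60 pre-granulosa and 53 Sertoli calls among 88. Of these 11 genes, 5 had more calls in pre-granulosa cells, 5 had more in Sertoli cells and 1 had equal numbers. Ezh2, for the enzyme that places the repressive histone mark of polycomb, had 21 pre-granulosa and 12 Sertoli calls, and Phc3, for a subunit of the other polycomb complex, had 3 and 9. Of the genes for trithorax and architectural proteins, 8 of 14 had baits, with 44 pre-granulosa and 62 Sertoli calls among 80, and 3 of them had more calls in pre-granulosa cells while 5 had more in Sertoli cells. With the original baits the polycomb genes had 44 Sertoli and 26 pre-granulosa calls among 53, the cofactors had 5 and 5 among 9, and the third list had 25 and 19 among 36. Over all cis interactions, Sertoli cells called 78.0% with the extended baits and 79.5% with the original ones, and pre-granulosa cells 56.3% and 42.0%. These counts describe contacts of the genes themselves, not of their products with the Hoxa cluster.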

How the data were processed

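Capture Hi-C of Sertoli cells (3 libraries) and pre-granulosa cells (2 libraries) was deposited as 2 tables of interactions. The values are CHiCAGO scores, which the authors computed and named in the deposited tables, with 1 column per cell type for all its libraries, per the labels' sample descriptions. The genome build is mm10, per the submitters' processing notes. The aligner, the read filters, the CHiCAGO version and the way libraries were combined are not given in the sources used here, and the read depth is unknown.

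Interactions were selected on chromosome 6 by gene symbol at either end, after splitting the names at commas and dropping the final number. Calls were made at a score of at least 5. Counts, medians, differences of asinh scores and 95% Wilson intervals were computed with Python 3.11.15, pandas 2.3.3 and scipy 1.17.1, and the counting was tested on simulated data. Contacts named are, for each table, the best of each bait, the 10 highest, the 5 with the largest difference in each direction, those beyond 200 kb and those with a flanking gene. Of these, the contacts the text turns on are printed. Genes and promoters came from RefSeq GRCm38.p6. The members and lists were chosen with earlier results of these data known. Alternatives were other thresholds, equal numbers of calls, a minimum distance, unordered pairs, members at the bait end and no scores of 0. Contacts with 1 other partner are not reported here, but they count in the totals.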

Additional observations from a re-analysis of the deposited data

How the results depend on the processing

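No paired analysis was possible because each cell type has 1 column for all its libraries, and for the same reason no library could be left out. The cause of the changes below was not tested. Over all Hoxa contacts, no alternative gave more Sertoli than pre-granulosa calls, but inside the cluster a threshold of 10 (extended) and of 7 (original) did. With the extended baits, there were 19 Sertoli and 30 pre-granulosa calls at a threshold of 7 (inside the cluster 12 and 20, on the Skap2 side 7 and 8), with 28.9% shared. At a threshold of 10 there were 11 and 11, a difference of 0 (inside 9 and 8, on the Skap2 side 2 and 3, on the Evx1 side 0 in pre-granulosa cells). With equal numbers of calls over the table, Sertoli cells had 26 fewer calls than pre-granulosa cells (a difference of -26) and 16 Sertoli calls remained inside the cluster. Counting each pair of ends once, or requiring the member at the bait end, left 6 Sertoli calls on the Skap2 side.

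With the original baits, a threshold of 7 left 2 calls in each cell type, a difference of 0 (inside 2 in Sertoli and 0 in pre-granulosa cells, on the Skap2 side 0 and 2), with 0% shared. A threshold of 10 left 0 Sertoli calls and 1 pre-granulosa call, a difference of -1 (inside 0 and 0, on the Skap2 side 0 and 1), with 0% shared. Equal numbers of calls left 4 Sertoli calls, a difference of -7, with 1 Sertoli call on the Skap2 side. A minimum distance of 10 kb left 1 Sertoli and 3 pre-granulosa calls inside the cluster. Over all results and alternatives, 52 of the extended and 49 of the original values moved by at most 1.5 times or stayed within their interval. The other 18 extended and 21 original values moved more. Part of the agreement was fixed in advance. The extended baits list no contact under 10 kb, and the original contacts all have the member at the bait end and no pair listed from both ends. The original baits also have no contact on the Evx1 side.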

Other observations

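Contacts of Hoxa genes outside the list were few. The extended bait of Hoxa6 contacted the Skap2 promoter bin at 7.13 in Sertoli cells against 1.17 in pre-granulosa cells. It also had the only interaction of a Hoxa bait with another chromosome, at a score of 5.33 in pre-granulosa cells, with 0 listed for Sertoli cells. The original bait of Gm28308-201 (52212816 to 52213954), which holds the upstream RefSeq start of Hoxa3, contacted the Skap2 bin from 52002909 to 52007983 at 7.44 in Sertoli cells against 5.14 in pre-granulosa cells. It contacted the bin from 51860829 to 51866582 at 5.06 in pre-granulosa cells against 1.75 in Sertoli cells.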
